A study of Mus musculus with 12 samples.

Results

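The genes described here carry cholesterol and fatty acids into and out of macrophages or control that traffic. They were chosen by name, as the rows of the deposited table for Abca1, Abcg1, Apoe, Cd36, Plin2, Ch25h, Nr1h3, Nr1h2, Mylip and Fabp5, which gave 10 genes of 32544 in the table. All 10 passed the filter on low counts that kept 14285 genes for testing. Abcg1, Cd36, Ch25h and Nr1h3, which have few or no counts in fibroblasts in WT medium, passed it through the groups in which they are higher. RNA had been sequenced from bone marrow-derived macrophages (BMDMs) of mice and from NIH/3T3 cells, an established line of mouse embryonic fibroblasts. The WT and PHD2cko labels belong to the macrophages. PHD2cko stands for a conditional deletion, by Cre under the myeloid LysM promoter, of Egln1, which encodes PHD2, an oxygen-sensing hydroxylase that marks HIF transcription factors for degradation. According to the study's methods the WT control mice carried LysM-Cre as well, so both macrophage groups share this transgene. LysM-Cre also acts in neutrophils. BMDMs had been grown from marrow in medium with L929-conditioned supernatant, and RNA was taken 24 h after seeding. The fibroblasts were serum-starved and then kept for 72 h in medium that BMDMs of either label had conditioned, called WT medium and PHD2cko medium here. Media were made under normal oxygen and under low oxygen in that study, and which of them was used for sequencing is not named. There were 3 libraries in each of the 4 groups. Nothing states that the triplicates came from separate animals or, for 3T3 cells, separate media, so the p-values measure the spread between these libraries, which may be technical.

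Cholesterol leaves a macrophage mainly through ABCA1 and ABCG1, which hand it to lipid-poor apolipoprotein A1 and to HDL, and through secreted APOE. Oxysterols, among them 25-hydroxycholesterol made by CH25H, activate the liver X receptors LXRα (Nr1h3) and LXRβ (Nr1h2), which raise transcription of Abca1, Abcg1, Apoe and of Mylip, an E3 ubiquitin ligase that limits lipoprotein uptake. CD36 takes up oxidised LDL and long-chain fatty acids, FABP5 carries fatty acids inside the cell, and PLIN2 coats the lipid droplets in which the excess is stored. Lipid-laden macrophages of this kind form the foam cells of atherosclerotic plaques.

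The data in brief were as follows. In BMDMs labelled PHD2cko, Cd36 was 2.58-fold and Plin2 1.37-fold higher than in WT, and the other 8 genes did not pass the test. In fibroblasts in PHD2cko medium, Abcg1, Apoe, Cd36 and Ch25h were higher and Mylip was 1.44-fold lower than in WT medium, and the remaining 5 did not pass. Ch25h, with no count in WT medium, reached 2.38 ± 1.50 counts per 1e6 counts (CPM) in PHD2cko medium, against 0.699 ± 0.455 CPM in BMDMs labelled PHD2cko and 1.28 ± 0.0653 CPM in WT BMDMs (SD, n = 3 each). The 4 genes that were higher in fibroblasts were highest in the same 2 libraries, and these libraries also held the most macrophage marker RNA. The library size behind a CPM is the one after TMM normalisation unless said otherwise. A gene passed a test when edgeR's quasi-likelihood fit gave it a p under 0.05 after Benjamini-Hochberg adjustment over all genes tested.

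Libraries held 15516465 to 25199770 estimated counts. Egln1, the targeted gene, was at 55.8, 54.7 and 55.5 CPM in the WT BMDM libraries and at 68.8, 68.3 and 71.6 CPM in those labelled PHD2cko. Its mRNA was thus higher in the libraries labelled as its deletion (by 0.33 ± 0.0527 on the log2 scale, fitted value and standard error, adjusted p = 0.00203). The study made its own check of the knockdown, by PHD2 mRNA in BMDMs, and reported increased HIF1α protein in PHD2cko BMDMs. The table gives 1 value per gene and cannot show a missing exon, so each direction below refers to libraries as labelled. Of 24 macrophage markers none was at 0 in any group. Their summed level, in CPM over the total count, ran from 48500 to 49600 in WT BMDMs, from 43800 to 45400 in BMDMs labelled PHD2cko, from 41.2 to 42.9 in fibroblasts in WT medium and from 242 to 1030 in fibroblasts in PHD2cko medium. The summed level of 16 fibroblast markers ran from 31300 to 34300 CPM in WT medium and from 36800 to 38300 CPM in PHD2cko medium, without overlap, with 6 of the 16 called higher and 2 lower, and from 3.30 to 9.05 CPM in the BMDM libraries. Markers of neutrophils (10 genes) and dendritic cells (7 genes) stayed under 5 CPM in sum in every library, and those of B and plasma cells (9 genes) were at 196 to 202 CPM in WT BMDMs, 160 to 174 CPM in those labelled PHD2cko, 4.25 to 5.88 CPM in WT medium and 13.0 to 14.8 CPM in PHD2cko medium. The 1 of these called higher in fibroblasts was Ighm, an immunoglobulin heavy chain gene, at 3.10, 2.76 and 4.23 CPM in WT medium and at 9.87, 12.1 and 10.8 CPM in PHD2cko medium (3.29-fold, adjusted p = 1.72e-05, edgeR), highest in replicate 2, where the macrophage markers were lowest. The part of these marker shifts in the results below was not tested. In WT medium, replicate 1 stood apart. The chi-square of its gene counts, divided by the degrees of freedom, was 17.7 against replicate 2 and 19.0 against replicate 3, and 2.01 between these. No pair of replicates agreed within sampling noise.

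Against WT BMDMs, 6.73% of all genes tested were called in BMDMs labelled PHD2cko, and 2 of the 10 genes were, Cd36 and Plin2. The libraries of the 2 labels did not overlap for 31.9% of all genes and for 5 of the 10. In fibroblasts, 15.7% of all genes were called and 5 of the 10. The groups did not overlap for 31.9% of all genes and for 6 of the 10. The shares called depend on the fit. With each cell type fitted alone they were 20.6% in BMDMs and 6.82% in fibroblasts, and with 1 library left out 3.63 to 13.0% in BMDMs (without WT replicate 1 and without replicate 1 of WT medium) and 8.70 to 19.0% in fibroblasts (without replicate 3 of PHD2cko medium and without replicate 1 of WT medium). The median log2 fold change was 0.02 over the 10 genes and 0.000222 over all genes in BMDMs, and 0.29 and -0.00461 in fibroblasts.

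**Figure D1:**
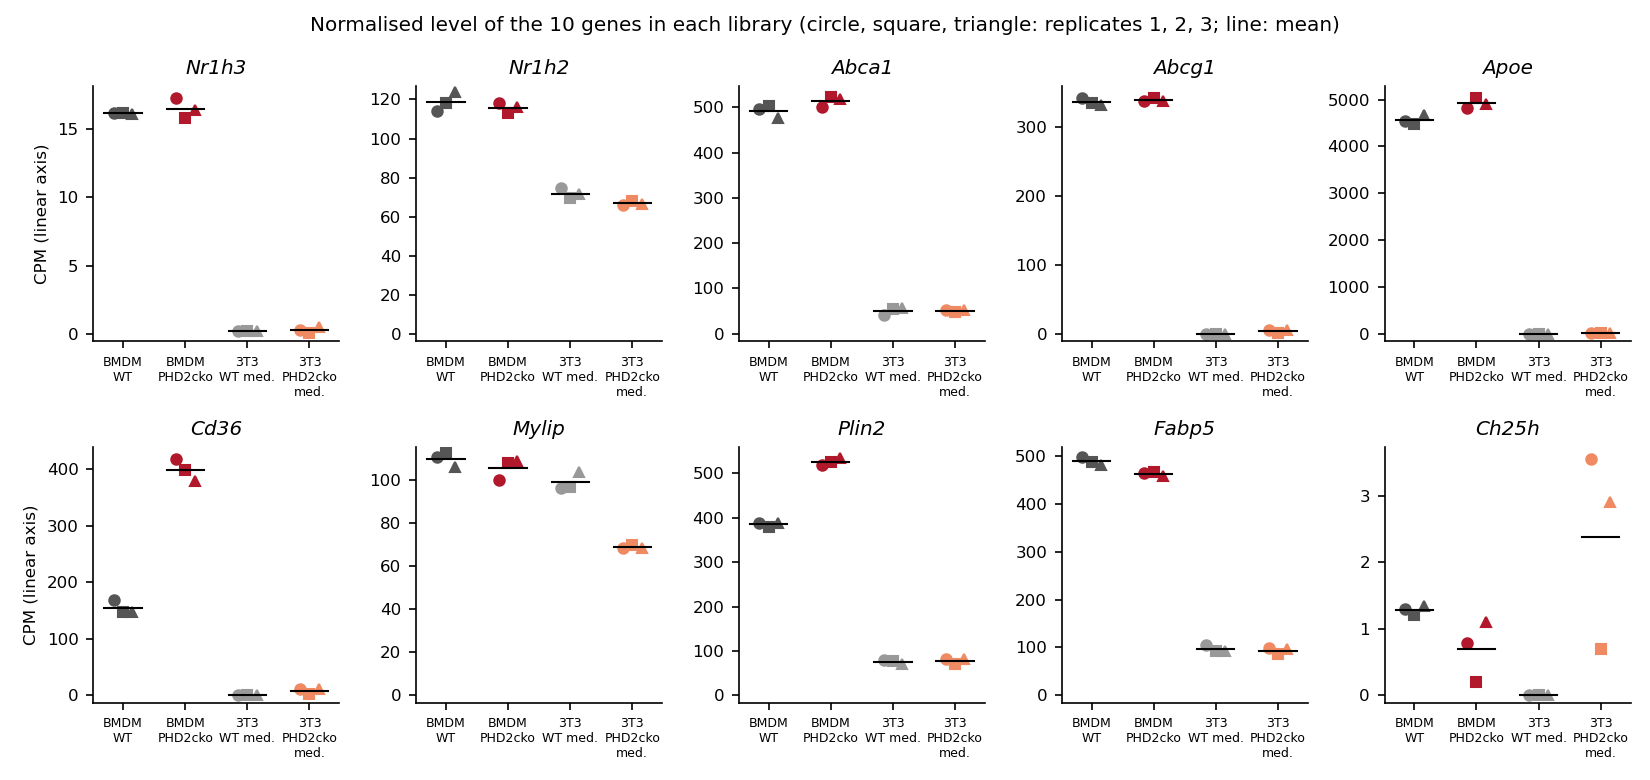
Normalised level (CPM, linear axis from about 0, 1 panel per gene) of each gene in the 12 libraries, in 4 groups of 3 with the group mean as a line. Cd36 and Plin2 separate the BMDM groups without overlap, Mylip separates the fibroblast groups, and Ch25h is the gene whose highest libraries are fibroblasts, 3.55 and 2.91 CPM.

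In both BMDM groups Apoe had the highest level per kilobase of merged exons, 2140 ± 45.7 CPM per kb in WT, and Ch25h the lowest, 0.925 ± 0.0471 CPM per kb. Merged exons take in every annotated transcript of a gene, so a gene read mainly from a shorter transcript is understated. For Fabp5 they hold 3567 bases, most of the stretch from 10012548 to 10016607, so its place in the orders below is uncertain. Fabp5 followed Apoe in WT BMDMs at 137 ± 2.21 CPM per kb and Plin2 at 110 ± 1.55 CPM per kb. Abca1 (47.4 ± 1.33), Abcg1 (46.0 ± 0.719) and Cd36 (43.0 ± 3.37 CPM per kb) lay close together, and neighbours among these 3 cannot be ordered within their spread. Nr1h2 (35.3 ± 1.40) and Mylip (34.0 ± 1.01) cannot be ordered either, and Nr1h3 stood at 6.41 ± 0.0235 CPM per kb. In fibroblasts in WT medium the order was another one. Mylip at 30.7 ± 1.27 and Fabp5 at 27.3 ± 2.18 CPM per kb had the highest levels, followed by Plin2 at 21.6 ± 1.28 and Nr1h2 at 21.4 ± 0.772, and within either pair the spreads overlap. Abca1 followed at 4.96 ± 0.842 and Apoe at 2.24 ± 0.415, and the other 4 genes were under 0.1 CPM per kb. All 10 genes were higher in WT BMDMs than in fibroblasts in WT medium, where 85.3% of all genes differed (40.4% higher in BMDMs).

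The receptors come first. Nr1h3, the LXR of macrophages, liver and fat (chromosome 2 of GRCm38, 91184061 to 91202834), was at 16.2, 16.2 and 16.1 CPM in the WT BMDM libraries and at 17.3, 15.8 and 16.4 CPM in those labelled PHD2cko. Its groups overlapped (log2 fold change 0.04, adjusted p = 0.949, edgeR). In fibroblasts it had 4 to 6 counts per library in WT medium and 6, 1 and 11 in PHD2cko medium, a ratio of 1.48 (95% interval 0.696 to 3.22, counting error only), so a difference was not detectable at this depth. Nr1h2, the LXR made in most tissues (chromosome 7, 44549616 to 44553951), was at 113 to 124 CPM over the 6 BMDM libraries, with a log2 fold change of -0.04 (adjusted p = 0.747). In fibroblasts it was at 69.3 to 74.5 CPM in WT medium and 65.9 to 68.2 CPM in PHD2cko medium. All 3 libraries in PHD2cko medium were below those in WT medium, yet the difference did not pass (log2 fold change -0.10, adjusted p = 0.149). Fibroblasts thus held the LXRβ transcript at the level of a well-counted gene and that of LXRα near the limit of counting. Of the other 11 nuclear receptors and cofactors tested, Pparg, the receptor for fatty acid ligands that drives Cd36 in macrophages, was higher in BMDMs labelled PHD2cko, from 43.0 ± 1.10 to 55.4 ± 1.59 CPM (log2 fold change 0.37, adjusted p = 0.0298). Ppard fell by 0.18 on the log2 scale (adjusted p = 0.0445). In fibroblasts 2 of the 11 were higher, the coactivator Ncoa3 by 0.39 on the log2 scale (adjusted p = 0.00379) and Pparg, with 4 counts over the 3 libraries in WT medium and 21 in PHD2cko medium, by 2.47 (adjusted p = 0.0267) with overlapping groups. Both had a BMDM mean at least 10 times that of WT medium.

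Abca1 (chromosome 4, 53030787 to 53159895, minus strand) pumps cholesterol and phospholipid onto apolipoprotein A1. It was at 496, 503 and 476 CPM in WT BMDMs and at 501, 523 and 518 CPM in BMDMs labelled PHD2cko. The groups overlapped, with a fitted log2 fold change of 0.06 (adjusted p = 0.799). In fibroblasts it was at 41.4, 55.1 and 57.6 CPM in WT medium and at 53.2, 48.2 and 52.3 CPM in PHD2cko medium, with a log2 fold change of -0.01 (adjusted p = 0.985). The lowest value, 41.4 CPM, belonged to the replicate of WT medium that stood apart. Abca1 is the textbook target of LXR, and the stretch before its start is shown because it holds a direct repeat of the kind that this receptor is known to bind. RefSeq's promoter table (GRCm38.p6) gave 8 of the 10 genes, Abcg1 and Fabp5 not among them. The bases shown are those of chr4:53159896-53160055, read on the minus strand. Capitals mark CACGTG, which holds the core of a hypoxia response element, and, at -67 to -53 from the start, the stretch with GGTTA and GGTCA on the other strand. These are the last 5 letters of 2 hexamers that stand 4 bases apart, the spacing known for LXR.
Abca1: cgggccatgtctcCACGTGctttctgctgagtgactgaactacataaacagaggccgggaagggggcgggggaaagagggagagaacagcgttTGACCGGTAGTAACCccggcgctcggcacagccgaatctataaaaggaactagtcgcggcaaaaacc
The repeat was searched on both strands by these 5-letter parts, as GGTTA or GGTCA, 5 bases, and GGTCA, in windows of 250 bases before to 50 after each start. It stood in 0.125% of 32851 such windows, and among the 8 matched genes only in Abca1. ACGTG or GCGTG, the letters to which HIF binds, stood in 43.8% of the windows and in Abca1, Ch25h, Mylip and Plin2. A match describes the letters alone.

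Abcg1 (chromosome 17, 31057675 to 31117988) passes cholesterol to mature HDL. In BMDMs its level barely moved, from 342, 334 and 332 CPM in WT to 338, 342 and 338 CPM in libraries labelled PHD2cko (log2 fold change 0.01, adjusted p = 1). In fibroblasts it had 2, 4 and 2 counts in WT medium and 104, 22 and 115 in PHD2cko medium. The 3 libraries in PHD2cko medium, at 5.34, 1.27 and 5.57 CPM, were all above those in WT medium, and replicate 2 was far below the other two. The fit gave 5.03 ± 0.633 on the log2 scale (adjusted p = 2.79e-04), and the ratio of summed counts was 34.7 (95% interval 17.3 to 81.3, counting error only). Even so, its level in PHD2cko medium was 81.3-fold lower than in BMDMs labelled PHD2cko.

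Apoe (chromosome 7, 19696109 to 19699188) encodes the apolipoprotein that macrophages secrete with cholesterol. Its level was 4540, 4480 and 4670 CPM in WT BMDMs and 4820, 5040 and 4900 CPM in those labelled PHD2cko. The groups did not overlap, but the difference was small beside the spread fitted over all 12 libraries (log2 fold change 0.11, adjusted p = 0.846). With the 6 BMDM libraries fitted alone it passed (adjusted p = 0.00928). In fibroblasts Apoe had 114, 123 and 78 counts in WT medium and 355, 139 and 355 in PHD2cko medium, which is 5.80, 4.46 and 4.12 against 18.2, 8.04 and 17.2 CPM. All libraries in PHD2cko medium were above those in WT medium (1.61 ± 0.240 on the log2 scale, adjusted p = 7.81e-04).

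Among the other 12 efflux genes tested, Abca7, a close relative of Abca1, was lower in BMDMs labelled PHD2cko, 102 ± 4.56 against 134 ± 4.03 CPM (log2 fold change -0.39, adjusted p = 0.00382), and none was higher. In fibroblasts Scarb1, the HDL receptor SR-B1, was lower in PHD2cko medium, 112 ± 1.72 against 137 ± 1.37 CPM (log2 fold change -0.29, adjusted p = 5.14e-04). Cyp27a1, which makes 27-hydroxycholesterol, was the 1 efflux gene beside Abcg1 and Apoe that was higher there. It was below 1 CPM in every fibroblast group mean and is named because it was the only one.

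Cd36 (chromosome 5, 17781690 to 17888801), the scavenger receptor, had the largest difference of the 10 genes in BMDMs. It was at 168, 148 and 147 CPM in WT and at 418, 399 and 380 CPM in libraries labelled PHD2cko. Every library labelled PHD2cko was far above every WT library, by a fitted 1.37 ± 0.218 on the log2 scale (adjusted p = 0.00203). In fibroblasts Cd36 had 0, 2 and 2 counts in WT medium and 203, 40 and 221 in PHD2cko medium. These are 10.4, 2.31 and 10.7 CPM, with replicate 2 again the lowest. The fitted difference was 6.89 ± 0.831 on the log2 scale (adjusted p = 2.21e-04) and the ratio of summed counts 134 (95% interval 51.9 to 493, counting error only). The level stayed 49.9-fold below that in BMDMs labelled PHD2cko.

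Mylip (chromosome 13, 45389742 to 45412022), the ligase that limits lipoprotein uptake, was the gene that fell. In fibroblasts it was at 96.6, 96.9 and 104 CPM in WT medium and at 68.4, 70.0 and 68.7 CPM in PHD2cko medium. The 3 libraries in PHD2cko medium lay close to each other and all below WT medium (log2 fold change -0.52 with a standard error of 0.0477, adjusted p = 5.95e-05). In BMDMs it was at 111, 113 and 106 CPM in WT and 100, 108 and 109 CPM in libraries labelled PHD2cko, overlapping groups with a log2 fold change of -0.06 (adjusted p = 0.589). The medium effect in fibroblasts and the label effect in BMDMs differed for Mylip by -0.46 on the log2 scale (adjusted p = 7.31e-04), where 12.3% of all genes differed.

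Of the other 16 genes of lipoprotein uptake tested, 3 were higher and 1 lower in BMDMs labelled PHD2cko. Those that rose included Colec12, a scavenger receptor of stromal cells (20.3 ± 0.421 to 29.4 ± 0.578 CPM, log2 fold change 0.54, adjusted p = 7.11e-05) and Lpl, the lipoprotein lipase (1846 ± 32.7 to 2536 ± 121 CPM, log2 fold change 0.46, adjusted p = 3.17e-04). In fibroblasts 4 of the 16 were higher and 3 lower. Msr1, the scavenger receptor SR-A, rose from 0.173 ± 0.114 to 7.99 ± 4.43 CPM (log2 fold change 5.56, adjusted p = 1.63e-04), and Stab1, a scavenger receptor of macrophages and sinus endothelium, from 0.527 ± 0.0177 to 22.4 ± 13.1 CPM (log2 fold change 5.40, adjusted p = 8.44e-05). Colec12 fell by 0.29 on the log2 scale (adjusted p = 8.99e-04), the opposite of its direction in BMDMs.

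Plin2 (chromosome 4, 86648386 to 86670060, minus strand), the droplet coat protein, rose in BMDMs labelled PHD2cko. It was at 388, 379 and 388 CPM in WT BMDMs and at 518, 526 and 535 CPM in those labelled PHD2cko. The groups were far apart beside their spread, at 0.45 ± 0.0582 on the log2 scale (adjusted p = 3.96e-04). In fibroblasts it was at 79.9, 76.6 and 71.0 CPM in WT medium and 80.8, 71.0 and 81.1 CPM in PHD2cko medium, a log2 fold change of 0.03 (adjusted p = 0.762). The 2 effects differed by -0.42 on the log2 scale (adjusted p = 0.00589). Plin2 is known as a gene that HIF and PPAR factors raise, and the bases before its start are shown for that reason, chr4:86670061-86670219 of GRCm38.p6, read on the minus strand, from RefSeq. Capitals mark the HIF letters as they stand on this strand, CACGC at -86 to -82 and the first bases of a further match that runs on past the end shown.
Plin2: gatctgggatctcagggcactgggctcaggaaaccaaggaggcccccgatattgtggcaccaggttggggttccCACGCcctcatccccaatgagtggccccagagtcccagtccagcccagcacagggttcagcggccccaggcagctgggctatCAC
As given above, such letters stand in 43.8% of all windows.

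None of the other 14 lipid droplet genes tested passed in BMDMs. In fibroblasts 3 fell and none rose. Plin4, a coat protein of fat cells, was at 2.40 ± 0.455 CPM in WT medium and 1.05 ± 0.180 CPM in PHD2cko medium (log2 fold change -1.19, adjusted p = 0.0461), and Lpin1, a phosphatidate phosphatase of triglyceride synthesis, fell by 0.40 on the log2 scale (adjusted p = 6.94e-04).

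Fabp5 (chromosome 3, 10012548 to 10016607), the epidermal fatty acid binding protein, was at 497, 487 and 481 CPM in WT BMDMs and 464, 466 and 458 CPM in BMDMs labelled PHD2cko. All libraries of the second group were below the first, but the log2 fold change of -0.08 did not pass (adjusted p = 0.579). In fibroblasts it was at 92.7 to 106 CPM in WT medium and 86.8 to 97.8 CPM in PHD2cko medium (log2 fold change -0.06, adjusted p = 0.581). Its level in fibroblasts is uncertain, since 7.24% of its 31-base words also occur in Gm6166, a gene with 3651 counts over the 3 libraries in WT medium and 2723 in PHD2cko medium but 19 and 22 in the BMDM groups. Of the other 15 fatty acid carriers and activating enzymes tested, 1 rose and 1 fell in BMDMs labelled PHD2cko. Slc27a1, a fatty acid transporter, went from 228 ± 5.03 to 282 ± 5.46 CPM (log2 fold change 0.31, adjusted p = 0.0122), and Acsl1, an acyl-CoA synthetase, fell by 0.22 on the log2 scale (adjusted p = 0.0316). Slc27a1 was also higher in fibroblasts in PHD2cko medium (log2 fold change 0.47, adjusted p = 0.00151), as was Cpt2 of mitochondrial fatty acid import (0.23, adjusted p = 0.0120). Slc27a6 and Acsl3 were lower there, with log2 fold changes of -0.75 and -0.20 (adjusted p = 0.0304 and 0.0161).

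**Figure D2:**
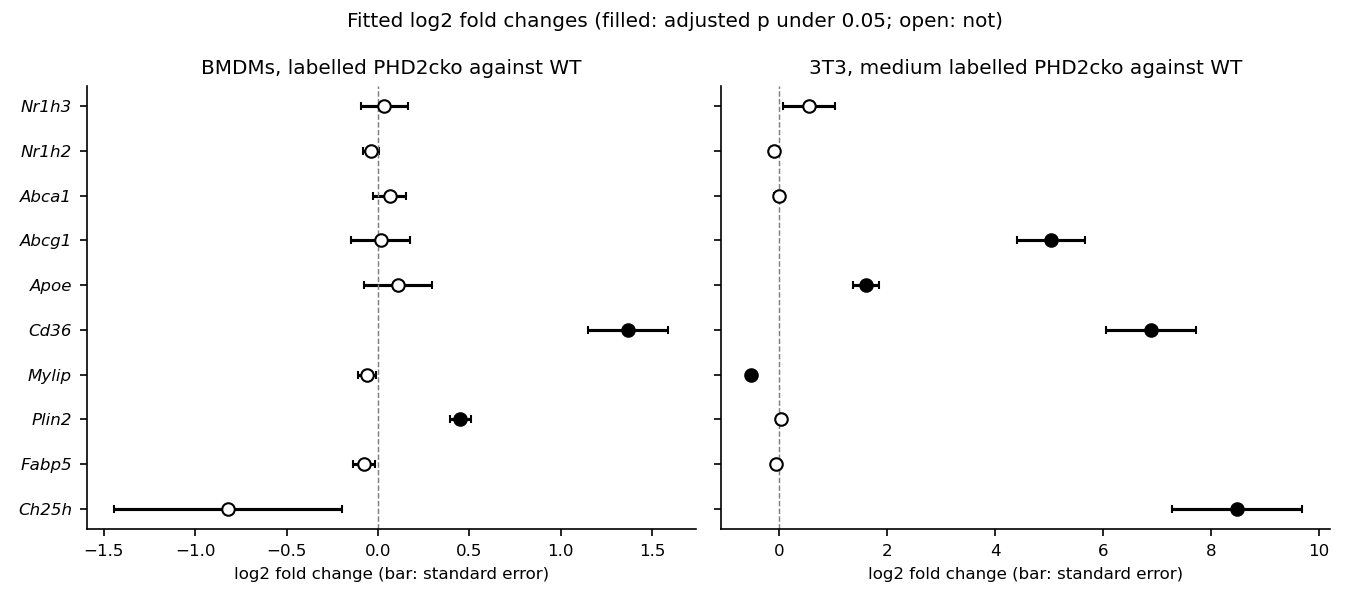
Fitted log2 fold change (x axis, bar: standard error) of the 10 genes, left in BMDMs labelled PHD2cko against WT and right in fibroblasts in PHD2cko against WT medium, filled where the adjusted p was under 0.05. The x axes differ in range. Cd36 is the 1 gene filled and higher in both panels, and the right-hand value of Ch25h rests on a group with no count.

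Ch25h (chromosome 19, 34473778 to 34475164, minus strand) is a gene of a single exon that encodes cholesterol 25-hydroxylase, an enzyme that myeloid cells induce on inflammatory and interferon signals. Its product, 25-hydroxycholesterol, activates LXR and holds back SREBP2, the factor behind cholesterol synthesis. The bases before its start are shown because it is the gene of the 10 that the fibroblast comparison turns on. They are chr19:34475165-34475398 of GRCm38.p6, from RefSeq, read on the minus strand. Capitals mark GCGTG at -176 to -172 and TGACGTCA, the palindrome that CREB and ATF factors bind, at -61 to -54.
Ch25h: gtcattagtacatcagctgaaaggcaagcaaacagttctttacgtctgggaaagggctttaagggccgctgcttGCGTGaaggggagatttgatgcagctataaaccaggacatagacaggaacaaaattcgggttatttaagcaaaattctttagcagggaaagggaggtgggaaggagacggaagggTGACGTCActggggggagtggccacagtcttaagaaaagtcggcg
The palindrome stood in 1.79% of the 32851 windows, and among the matched genes in Ch25h only.

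Ch25h had 20, 20 and 22 counts in the WT BMDM libraries and 13, 3 and 21 in those labelled PHD2cko. The second group was below the first in CPM (1.30, 1.21 and 1.34 against 0.789, 0.205 and 1.10) and spread widely, and the difference did not pass (log2 fold change -0.82, adjusted p = 0.578). Unstimulated BMDMs of both labels thus held it at low counts, at most 22 per library, and 1 library labelled PHD2cko had 3. In fibroblasts in WT medium it had 0 counts in all 3 libraries, and a floor of 3 counts per library, the one-sided 95% limit for a count of 0, would be 0.119 to 0.173 CPM over the total count, or 0.109 to 0.159 CPM on the TMM scale of the values given here. In PHD2cko medium it had 69, 12 and 60 counts, or 3.55, 0.694 and 2.91 CPM. Every library in PHD2cko medium was above that floor. Set against the highest of the 3 floors, the level was at least 15.0-fold higher over the group and at least 4.38-fold higher in the lowest library. The fit gave an adjusted p of 0.00106, and its log2 fold change of 8.48 depends on how a zero is handled. Of the 31-base words of Ch25h, 9.51% also occur in transcripts of other genes. Gm26902, an RNA of the opposite strand, overlaps it, and whether counting used the strand is not stated.

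Set beside the macrophages, the level of Ch25h in fibroblasts in PHD2cko medium was higher than in BMDMs labelled PHD2cko, by 1.72 ± 0.575 on the log2 scale (fitted value and standard error, adjusted p = 0.0161). It was the 1 gene of the 10 with that direction, where 84.4% of all genes differed (43.6% higher in fibroblasts), and the other 9 were lower in fibroblasts, from 1.53-fold for Mylip to 338-fold for Apoe. The ratio of summed counts, scaled by depth, was 3.33 to BMDMs labelled PHD2cko (95% interval 2.31 to 4.92) and 1.92 to WT BMDMs (1.41 to 2.63), with counting error only. The groups overlapped, since fibroblast replicate 2 was at 0.694 CPM and 2 of the 3 libraries labelled PHD2cko were higher, at 0.789 and 1.10 CPM. The call was lost without fibroblast replicate 1 (log2 fold change 1.34, adjusted p = 0.0691), without fibroblast replicate 3 (1.56, adjusted p = 0.0509) and without replicate 2 of the BMDMs labelled PHD2cko (1.33, adjusted p = 0.0554). Against all 6 BMDM libraries, at 0.991 ± 0.432 CPM (SD, n = 6), an exact permutation test, two-sided, gave p = 0.0714 over 84 arrangements, of which the smallest possible is 0.0119. Culture time, medium and serum differ between the cell types, so cell type and culture cannot be told apart in this comparison.

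The spread of Ch25h among the fibroblast libraries went with the macrophage marker RNA in them. Taken as a percentage of the summed marker level in the BMDMs of the same label, this RNA was at 0.0842, 0.0876 and 0.0864% in WT medium and at 2.32, 0.545 and 2.07% in PHD2cko medium. The groups did not overlap, and an exact permutation test gave p = 0.1, the smallest that 3 against 3 allows. The percentage depends on the list, with a mean in PHD2cko medium of 1.65 ± 0.962% (SD, n = 3) over the 24 markers and of 2.12% without the 3 most abundant. Of the 24 markers, 23 were called higher in PHD2cko medium. In bulk RNA, fewer cells of a type and less RNA per cell cannot be told apart. Ch25h had 3.86, 3.19 and 3.52 counts per 1000 marker counts in the 3 fibroblast libraries in PHD2cko medium, a nearly constant ratio, while it had 0.0226 to 0.0248 in WT BMDMs and 0.00427 to 0.0218 in BMDMs labelled PHD2cko. At the BMDM level, the marker share of these libraries would bring 0.255, 0.0535 and 0.243 counts of Ch25h, where 69, 12 and 60 were counted. Which cells in the dish made the transcript was not tested.

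The same arithmetic was applied to the other 3 genes. It rests on the summed level, and single markers spread widely around it. Over the 24 markers, the percentage of the BMDM level ran from 0.979 to 15.6% in replicate 1 (median 3.36%), from 0.210 to 5.93% in replicate 2 (median 0.765%) and from 0.839 to 12.6% in replicate 3 (median 3.12%). For Abcg1 it would bring 124, 26.1 and 118 counts, and 104, 22 and 115 were counted. Abcg1 stood at 5.82 to 6.75 counts per 1000 marker counts in these libraries and at 6.67 to 7.13 in BMDMs labelled PHD2cko. For Cd36 it would bring 146, 30.7 and 139 counts, and 203, 40 and 221 were counted. For Apoe it would bring 1800, 379 and 1720 counts, and 355, 139 and 355 were counted. Apoe thus lay at 0.457, 0.200 and 0.428% of its BMDM level where the markers lay at 2.32, 0.545 and 2.07%. In replicate 2 that was just under the lowest of the 24 markers, and in replicates 1 and 3 further below it. Ch25h lay at 629, 122 and 512% of its BMDM level, above all 24 markers in each library. Abcg1 (1.94, 0.459 and 2.01%) and Cd36 (3.22, 0.710 and 3.29%) lay within the range of single markers, with 13, 13 and 9 of the 24 above Cd36. With the marker share subtracted, the difference of Abcg1 was no longer called (adjusted p = 1), with no count left in any fibroblast library, and that of Apoe turned negative, with 51, 32 and 16 counts left in WT medium and 0 in PHD2cko medium. This sign of Apoe was set by the subtraction, since more was to be taken off in PHD2cko medium than was counted. Cd36, Ch25h and Mylip stayed called in their directions. For Ch25h that was fixed beforehand, as its share came to at most 0.255 counts per library, and for Cd36 it depends on the share used. Cd36 had 0 counts left in WT medium and 57, 9 and 82 in PHD2cko medium, and Ch25h kept its counts, so the fitted sizes for these genes other than Mylip rest on a group with no count. Without the 2 libraries of highest marker level, an alternative added after seeing the data, PHD2cko medium is left with replicate 2 alone, and the spread comes from the other groups, with that library assumed to vary like them. The fitted log2 fold changes were then 3.33 (Abcg1), 0.75 (Apoe, adjusted p = 0.0194), 5.11 (Cd36), 6.68 (Ch25h, adjusted p = 0.0302) and -0.50 (Mylip). Mylip, at 68.4, 70.0 and 68.7 CPM in the same libraries, had a spread of 0.850 CPM (SD).

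**Figure D3:**
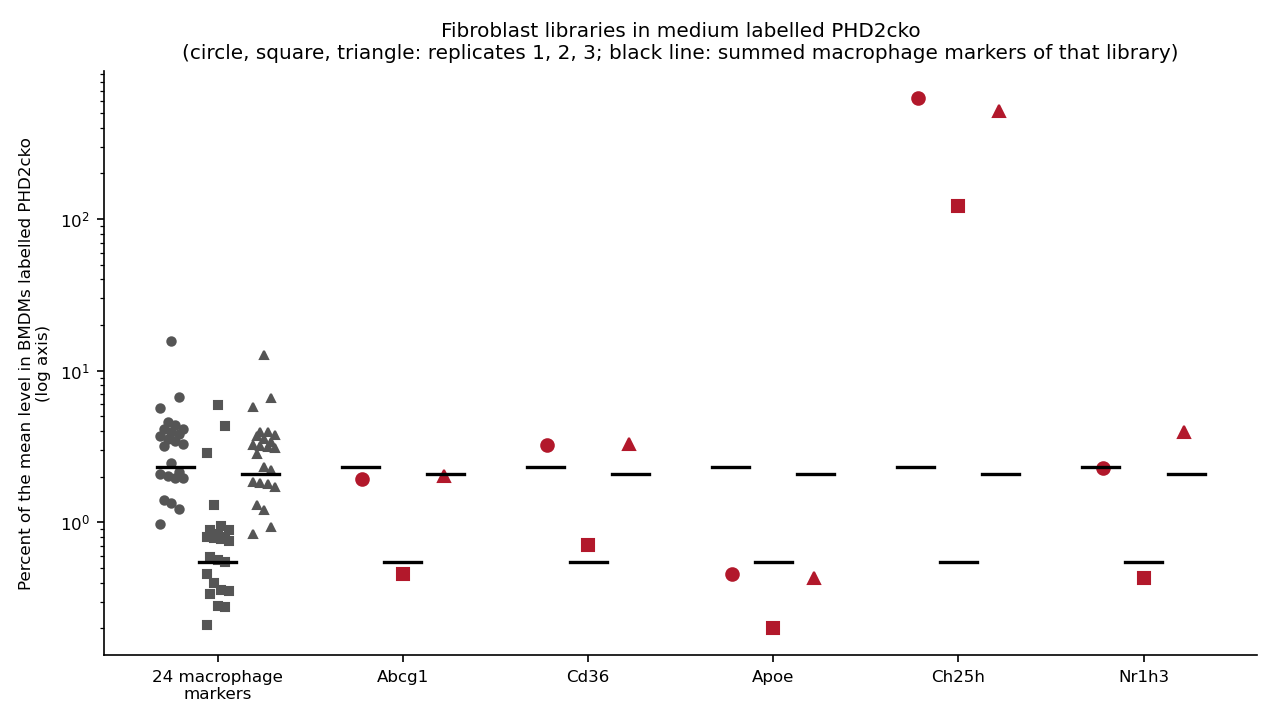
Level in each of the 3 fibroblast libraries in PHD2cko medium as a percentage of the mean in BMDMs labelled PHD2cko (log axis), for the 24 macrophage markers (grey) and 5 of the 10 genes (red), with the summed marker level of the same library as a black line. Single markers spread from 0.210 to 15.6%. Abcg1, Cd36 and Nr1h3 lie within the range of the markers of each library, Apoe below it and Ch25h above it, at 122 to 629%.

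The genes whose pattern over the 12 libraries was most like that of Ch25h were Ccl12, Cd300e, Acpp, Mgl2 and Ccl5, by the root mean square difference of log2 CPM centred on each gene's mean (0.657, 1.09, 1.15, 1.26 and 1.36). Ccl12, a monocyte chemokine, was the only other one with a higher mean in PHD2cko medium than in either BMDM group, 1.04 ± 1.00 CPM against 0.577 ± 0.130 CPM in WT and 0.312 ± 0.0929 CPM in libraries labelled PHD2cko, and like Ch25h it had no count in WT medium. Its SD is as large as its mean. Cd300e was at 0.528 ± 0.274 CPM in PHD2cko medium and Acpp at 7.19 ± 0.809 CPM, both below the BMDM groups.

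Among the other 15 oxysterol genes tested, none passed in BMDMs. In fibroblasts 3 were higher and 2 lower in PHD2cko medium. The 3 were Cyp27a1, Gpr183 and Osbpl8. Osbpl8, an oxysterol-binding protein of the endoplasmic reticulum, was higher by 0.33 on the log2 scale. Gpr183, the receptor for the oxysterols made downstream of CH25H, had 12, 8 and 16 counts in the 3 libraries and was called higher (log2 fold change 2.94, adjusted p = 6.72e-04) at 0.618 ± 0.156 CPM. It is named for its place in the pathway. Insig1, which holds SREBP proteins in the endoplasmic reticulum and is itself raised by them, fell from 216 ± 11.9 to 168 ± 4.55 CPM (log2 fold change -0.36, adjusted p = 5.58e-04), and Osbpl9 fell by 0.14 on the log2 scale. Among the other 13 LXR targets tested, Smpdl3a, a phosphodiesterase of macrophages, was higher in fibroblasts in PHD2cko medium, 3.87 ± 1.96 against 0.140 ± 0.0272 CPM (log2 fold change 4.79, adjusted p = 1.20e-04), while the desaturases Scd1 and Scd2 were lower (log2 fold changes -0.29 and -0.25, adjusted p = 0.0148 and 0.0101). In BMDMs labelled PHD2cko, Scd1 was at 32.6 ± 4.27 CPM against 61.2 ± 1.48 CPM in WT (log2 fold change -0.91, adjusted p = 1.58e-05). With the members on it included, the list of LXR targets had 1 gene higher and 2 lower of 19 tested in BMDMs (3.38% and 3.35% of all genes), and 4 higher and 3 lower in fibroblasts (8.93% and 6.75% of all genes). Of the 4 that were higher in fibroblasts, Abcg1, Apoe and Smpdl3a had BMDM means at least 10 times those in WT medium, and Ch25h had no count in WT medium.

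**Figure D4:**
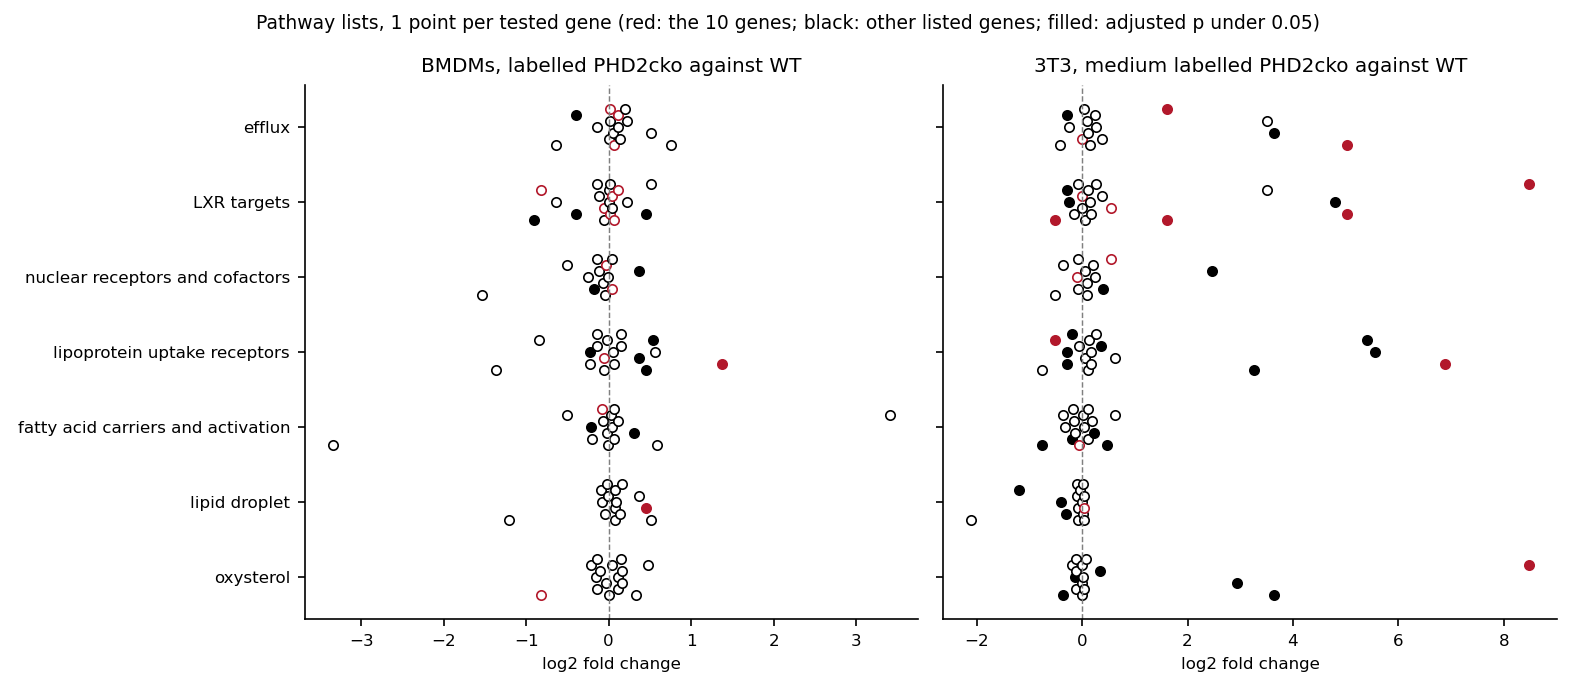
Log2 fold change (x axis) of each tested gene of 7 lists (rows), left in BMDMs and right in fibroblasts, 1 point per gene, red for the 10 genes described here, filled where the adjusted p was under 0.05. A gene in several lists appears in each. The x axes differ in range. In BMDMs the called points lie within about 1 log2 unit of 0 but for Cd36, and in fibroblasts the called points beyond 2 log2 units are all higher.

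Over all 7 lists, 89 of the 111 listed genes beyond the 10 were tested. In BMDMs 5 were higher and 5 lower in libraries labelled PHD2cko, where 3.38% of all genes were higher and 3.35% lower. In fibroblasts 12 were higher and 12 lower in PHD2cko medium, where 8.93% of all genes were higher and 6.75% lower. Of those 12 higher, 10 were genes of macrophage type, with a BMDM mean at least 10 times their mean in WT medium, as were 633 of all 1276 genes called higher. The effects in the 2 cell types differed for 12.3% of all genes and for 6 of the 10. Abcg1, Apoe, Cd36 and Ch25h moved further up in fibroblasts than in BMDMs by 5.02, 1.50, 5.53 and 9.30 on the log2 scale (adjusted p = 4.48e-04, 0.00616, 0.00329 and 0.00216). With the macrophage share subtracted, that of Abcg1 was no longer called (adjusted p = 1). That of Apoe turned negative (adjusted p = 7.84e-04), a sign set by the subtraction, which took all its counts in PHD2cko medium to 0. Those of Cd36 (adjusted p = 0.0199) and Ch25h (adjusted p = 0.00241) stayed called. For Ch25h this was fixed beforehand, as its share came to at most 0.255 counts per library. For Cd36 it depends on the share used. Cd36 lay at 3.22, 0.710 and 3.29% of its BMDM level, beside marker medians of 3.36, 0.765 and 3.12%. Each of the 4 differences then rests on a group with no count, so no size is given. Plin2 and Mylip moved down relative to BMDMs. These values use the same libraries as the comparisons above and add no separate evidence.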

How the data were processed

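RNA of 3 BMDM libraries per label and 3 fibroblast libraries per medium had been sequenced as single reads. The authors deposited estimated counts per gene, made with Kallisto on GRCm38 per the submitters' processing notes with transcripts added up per gene and nothing normalized or filtered. The values are whole numbers, and how they were rounded is not stated. Kallisto spreads reads that fit several genes, so genes with near-identical copies are uncertain.

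The 12 libraries were grouped by their labels and fitted together in edgeR 4.0.16 (R 4.3.3) with TMM, filterByExpr by the 4 groups, the quasi-likelihood test, two-sided, and Benjamini-Hochberg adjustment over 14285 genes at a threshold of 0.05. The comparisons were the label in BMDMs, the medium in fibroblasts, the difference of these 2 effects, and the cell types against each other. Marker levels are CPM over the total count. A fold against a group with no count is a bound at a floor of 3 counts per library (the highest such floor), and intervals (95%, exact, on the counts) and floors cover counting error only. Where the marker share was subtracted, the mean BMDM profile of the same label, scaled by that share, was taken off each fibroblast library, down to 0 at most. The fits were also run on simulated data with 200 changed genes, and the outcome is not given here. Alternatives were DESeq2 size factors, DESeq2 1.42.0, limma 3.58.1 with voom, 2 other filters, fits within a cell type, a block for the replicate number, the subtraction and each library left out.

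The 10 genes, the lists and the tests were chosen with earlier results of these data known. Of each list, up to 2 genes per direction and cell type comparison with the largest log2 fold change are named, among called genes that reach 1 CPM on average in a group compared, and for Ch25h the 5 most similar genes. Others named, such as Cyp27a1, Gpr183 and Osbpl8, were added for their role or to complete a count. Positions come from the GENCODE annotation on GRCm38, promoter bases from RefSeq on GRCm38.p6. Protein sequences were not used here. Some genes of the lipoprotein uptake list are not reported here by name.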

Additional observations from a re-analysis of the deposited data

Results flagged for a closer look

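The effect of the label in BMDMs and the effect of the medium in fibroblasts differed for 12.3% of all genes and for 6 of the 10 when the difference itself was tested (edgeR's interaction contrast, adjusted over all genes). It was larger in fibroblasts by 5.02 on the log2 scale for Abcg1, 1.50 for Apoe, 5.53 for Cd36 and 9.30 for Ch25h. For Plin2 it was -0.42 and for Mylip -0.46. In the 3 fibroblast libraries in PHD2cko medium the first 4 genes were lowest in replicate 2, as was the macrophage marker level (0.545% against 2.32 and 2.07%). With the macrophage share subtracted, the difference of Abcg1 was no longer called (adjusted p = 1). That of Apoe turned negative (adjusted p = 7.84e-04), a sign set by the subtraction, which took all its counts in PHD2cko medium to 0. Those of Cd36 (adjusted p = 0.0199), Ch25h (adjusted p = 0.00241), Plin2 (-0.51) and Mylip (-0.455) stayed called. For Ch25h this was fixed beforehand, as its share came to at most 0.255 counts per library, and for Cd36 it depends on the share used. The subtraction leaves no count in at least 1 fibroblast group for Abcg1, Apoe, Cd36 and Ch25h, so no size is given for these. The value of Ch25h before subtraction rests on a group with no count too and is no measure of size. Plin2 differed because it was higher in BMDMs labelled PHD2cko and not called in fibroblasts, and Mylip because it was lower in fibroblasts and not called in BMDMs.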

How the results depend on the processing

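Over 8 planned settings, 12 fits without 1 library each and 1 setting added after the data were seen, 907 of the fitted values of the 10 genes kept direction and side of the threshold, 5 were no longer past it, 1 newly passed and 26 changed sign, 23 of them not called in either fit. With the macrophage share subtracted, the fibroblast log2 fold change of Apoe went to -7.79 and its difference from BMDMs to -7.90, and the difference of Abcg1 went to -0.0123, since the subtraction leaves counts of 0. The 23 belong to 4 genes. In fibroblasts, Abca1 (-0.01) was at 0.00584 with DESeq2 size factors, 0.00591 with DESeq2, 0.00732 with limma-voom, 0.00187 with at least 10 counts, 0.00105 with the replicate block and 0.00562 with the cell type alone. With the share subtracted, Plin2 was at -0.0650 and Nr1h3 at -1.19, and for the difference from BMDMs Nr1h3 was at -1.22 and Fabp5 at -0.0385. Without the 2 fibroblast libraries of highest marker level, Plin2 was at -0.0943 and Nr1h3 at -1.75. With 1 library left out, the fibroblast values ran from -0.114 to 0.0811 (Abca1), -0.0104 to 0.0938 (Plin2), -0.148 to 0.979 (Nr1h3) and -0.0924 to 0.0308 (Fabp5), and the differences from BMDMs from -0.177 to 0.0156 (Abca1), -0.184 to 0.943 (Nr1h3) and -0.0151 to 0.110 (Fabp5). With at least 10 counts in every library, 6 of the 10 genes remained in the test (Abcg1, Cd36, Ch25h and Nr1h3 were dropped), and 1 was called in BMDMs (8.45% of the 10657 genes tested), 2 in fibroblasts (15.2%), 3 for the difference of effects (12.4%), 5 between WT BMDMs and fibroblasts (85.1%), Mylip being lost (adjusted p = 0.0891), and 6 between fibroblasts in PHD2cko medium and BMDMs of that label (84.4%). With each cell type fitted alone, 2534 genes were called in BMDMs against 961, and 912 in fibroblasts against 2240. In the fit with 1 library of PHD2cko medium left (replicate 2), whose spread is borrowed from the other groups, 434 were called, which is no check of the counts above. With 1 library left out, the count of genes ran from 527 (without WT BMDM replicate 1) to 1889 (without replicate 1 of WT medium) in BMDMs and from 1260 (without replicate 3 of PHD2cko medium) to 2757 (without replicate 1 of WT medium) in fibroblasts, and the genes called among the 10 stayed at 2 in BMDMs and 5 in fibroblasts. The causes were not tested.

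No pairing of these libraries by replicate number was seen. None of 18 pairs with the same number had deviations correlated above 0.1 (-0.113 to 0.0478), and 0 of 12 libraries correlated best with its own number. With 3 libraries per group this check cannot exclude a shared animal or medium. With the number as a replicate block, 815 genes were called in BMDMs, 1953 in fibroblasts, and 2 and 5 of the 10 genes. Depth limits Ch25h and Nr1h3, and Abcg1 and Cd36 in WT medium, to counts of 0 to 6 per library in their lowest groups.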
